A study of Homo sapiens with 10 samples.

Results

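The mRNA levels of 10 ETS family transcription factors were compared across 4 lines of the human prostate cancer cell line PC3, measured by RNA-seq. The genes ELF3, EHF, SPDEF, ELF1, ETS1, ETS2, ETV1, ETV4, ETV5 and ERG were taken by their symbols from the deposited gene tables, where each has 1 row of its own among 23170 genes, and 24 of 37557 rows in the isoform tables. PC3-Epi (2 samples) is an epithelial subpopulation of luciferase-positive PC3 cells, picked for its light signal and cell shape. PC3-EMT14 (3 samples) is a mesenchymal line isolated from PC3-Epi after co-culture with IL4-treated macrophages made from CD14+ monocytes. From PC3-EMT14 came PC3-EMT14-OVOL1 (3 samples), transduced with a lentivirus for the zinc-finger factor OVOL1, and PC3-EMT14-OVOL2 (2 samples), transduced with a lentivirus for OVOL2. The paper describes different constructs for OVOL1 and OVOL2, with a V5 tag on OVOL2. The labels of PC3-EMT14 itself name no empty vector. Every line therefore descends from the same luciferase-positive PC3 cells, and the samples of a line share that derivation, with no source used here stating whether each OVOL line came from a single transduction.

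ETS factors bind DNA through a shared winged helix-turn-helix domain that reads a GGAA core. ELF3, EHF and SPDEF are expressed in epithelia, prostate included, and are grouped here as the epithelium-specific ETS genes. ETV1, ETV4 and ETV5 form the PEA3 branch, which acts downstream of receptor tyrosine kinases and the ERK pathway, and ETS1 and ETS2 are ERK substrates often studied in invasion and in blood vessels. ERG, ETV1 and ETV4 are known in prostate cancer as fusion partners of genes such as TMPRSS2.

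The values are FPKM, fragments scaled to transcript length and sequencing depth, so levels can be set side by side between genes. The authors' program Cuffdiff combined the samples of a line into 1 pooled value for each comparison. No value per sample was analysed here, so no SD, interval or test could be computed, the depth is unknown, and no difference below has a replicate check. A gene was counted as higher or lower where its pooled FPKM differed at least 2-fold and the higher line had at least 1 FPKM. Each table was scaled on its own. PC3-EMT14 stands in 3 tables, and a member's highest value for it there exceeded the lowest by 1.03-fold for each of the 9 members above 1 FPKM.

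The lines were checked by the OVOL genes and by epithelial and mesenchymal markers. OVOL1 was at 0.0238 FPKM in PC3-EMT14 against 11.3 FPKM in PC3-EMT14-OVOL1, and OVOL2 was at 0.370 FPKM in PC3-EMT14 against 831 FPKM in PC3-EMT14-OVOL2, so the transgenes were not matched in level. PC3-Epi had 4.25 FPKM of OVOL1 and 9.91 FPKM of OVOL2. CDH1, the gene of E-cadherin, was at 1.00 FPKM in PC3-EMT14 against 50.6 FPKM in PC3-Epi, 16.2 FPKM with OVOL1 and 39.2 FPKM with OVOL2. ZEB1, a repressor of epithelial genes, was at 7.59 FPKM in PC3-EMT14 against 0.130 FPKM in PC3-Epi, 4.25 FPKM with OVOL1 and 1.77 FPKM with OVOL2. Of 8 macrophage markers, 7 were under 0.1 FPKM in every line. The other, CD68, was at 54.1 FPKM in PC3-EMT14 against 13.2 FPKM in PC3-Epi, 51.2 FPKM with OVOL1 and 57.8 FPKM with OVOL2, and its part in the results was not tested. Of 7 epithelial markers, 6 were at least 2-fold higher in PC3-Epi and 4 with OVOL1, and with OVOL2 4 of the 6 that could be counted. Of 6 mesenchymal markers 5 could be counted, and 2 of them (VIM and ZEB1) were at least 2-fold lower in PC3-Epi, 0 with OVOL1 and 4 with OVOL2. FN1, the gene of fibronectin, was at 36.8 FPKM in PC3-EMT14 against 33.8 FPKM in PC3-Epi, so the mesenchymal list separated these lines only in part. The prostate luminal genes KLK3 and KLK2 were listed at 0 in every line.

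Stretches of promoter sequence are shown for 3 members. Windows were taken from the RefSeq promoter table (GRCh38.p14) and placed by exact match on GRCh37, the assembly of the authors' hg19. The table held 19 windows of 300 bases for 7 of the 10 members, namely ELF3, EHF, SPDEF, ELF1, ETS2, ETV1 and ERG. Both strands were searched for CACCTG, the E-box bound by ZEB1, CCGTTA, a core of OVOL sites, and CCGGAA, a core of ETS sites, and by their letters no match of one can share bases with a match of another. The ELF3 stretch holds the E-box (capitals), the EHF stretch belongs to the member with the largest difference between lines, and the ETV1 stretch holds the ETS core (capitals).
ELF3: gaatatgcaaatCACCTGgggccaggagcc
EHF: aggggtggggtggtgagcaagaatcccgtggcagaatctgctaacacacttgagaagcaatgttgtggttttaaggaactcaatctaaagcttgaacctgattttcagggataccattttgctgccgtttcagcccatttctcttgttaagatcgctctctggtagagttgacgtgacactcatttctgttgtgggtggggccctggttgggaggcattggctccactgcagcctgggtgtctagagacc
ETV1: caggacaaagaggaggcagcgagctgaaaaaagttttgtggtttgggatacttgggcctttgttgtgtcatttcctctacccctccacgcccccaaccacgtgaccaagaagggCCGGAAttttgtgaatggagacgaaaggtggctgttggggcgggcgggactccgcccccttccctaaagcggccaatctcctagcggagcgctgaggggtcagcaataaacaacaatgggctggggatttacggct
The ELF3 stretch lies at chr1:201979583-201979612 on the plus strand of hg19, and its E-box spans positions -120 to -115 from the RefSeq start site, which is 25 bases from the deposited start of the gene. The EHF stretch lies at chr11:34645554-34645803 on the plus strand, directly before a RefSeq start 3216 bases inside the deposited locus. The ETV1 stretch lies at chr7:14031051-14031300 on the minus strand, directly before the deposited start of the gene, and its ETS core spans positions -136 to -131. CACCTG was found in 5 of the 19 member windows (of ELF3, ETS2 and ERG) and in 20.6% of all 35116 windows of the table. Among these 5, 2 windows of ERG overlap and hold the same match, so they are not 5 separate sites. CCGTTA was found in 2 member windows, against 3.07% of all windows, and CCGGAA in 3, against 17.2%. These were windows of ETV1, of which 2 overlap and hold the same matches. These are matches of letters in short windows, and no binding was measured.

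The epithelium-specific ETS genes were higher in PC3-Epi than in PC3-EMT14, and they differed in how far the OVOL lines approached PC3-Epi. EHF, which stood lowest of the 3 in PC3-EMT14, lay between PC3-EMT14 and PC3-Epi with either OVOL. With OVOL2, ELF3 was near its PC3-Epi level and SPDEF near its PC3-EMT14 level. In PC3-Epi against PC3-EMT14, 3 of the 9 members above 1 FPKM were at least 2-fold higher, where 7.35% of 12388 genes were, and 1 was at least 2-fold lower, where 8.33% were. With OVOL1, 1 member was 2-fold higher (2.42% of 12128 genes) and 0 were lower (1.53%). With OVOL2, 2 members were higher (4.41% of 12242 genes) and 0 were lower (2.92%). These comparisons share the PC3-EMT14 libraries. The median log2 ratio of the 9 members was 0.12 in PC3-Epi, -0.10 with OVOL1 and 0.04 with OVOL2, beside -0.01, -0.00 and -0.04 over all genes.

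**Figure D1:**
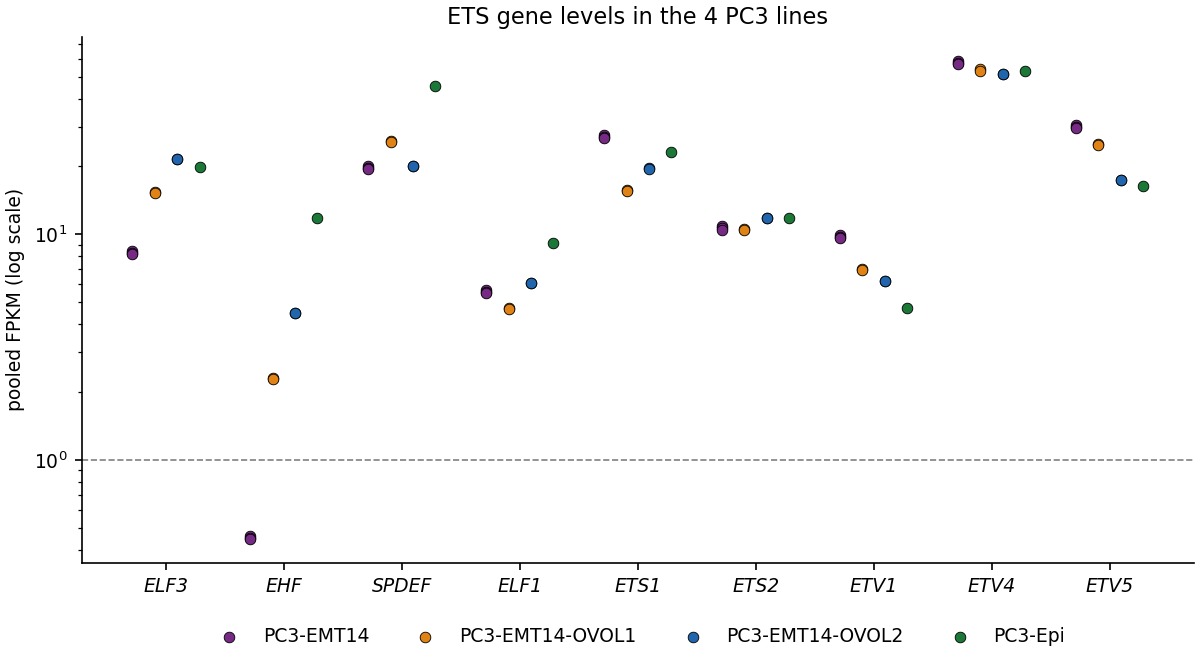
Pooled FPKM (log axis) of 9 ETS genes, with 1 point for each line and table that holds it, so that PC3-EMT14 has 3 nearly coinciding points, the OVOL lines 2 and PC3-Epi 1. The dashed line is 1 FPKM, and EHF in PC3-EMT14, at 0.446 to 0.460 FPKM, is the only value below it. ERG, at or near 0 in every line, is not drawn.

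EHF encodes an ETS factor of glandular epithelia. Its row (XLOC_003240) covers chromosome 11 from 34642588 to 34684834. EHF was at 0.460 FPKM in PC3-EMT14 against 11.8 FPKM in PC3-Epi, a 25.6-fold ratio (log2 4.68). With OVOL1 it was at 0.450 FPKM without and 2.30 FPKM with the transgene, 5.11-fold higher (log2 2.35), and with OVOL2 at 0.446 and 4.48 FPKM, 10.05-fold higher (log2 3.33). Relative to PC3-EMT14, PC3-Epi was highest, then PC3-EMT14-OVOL2, PC3-EMT14-OVOL1 and PC3-EMT14. On the same scale the OVOL1 line had 20.0% and the OVOL2 line 39.2% of the PC3-Epi level. EHF was below 1 FPKM in PC3-EMT14 against entered these counts only through the lines in which it was high. Its 25.6-fold ratio was matched or exceeded by 0.757% of all genes in that comparison, and its ratios with OVOL1 and OVOL2 by 0.739% and 0.699% in theirs.

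ELF3, an ETS factor of epithelial differentiation, has its row (XLOC_000939) on chromosome 1 from 201979690 to 201986315. It was at 8.40 FPKM in PC3-EMT14 against 19.9 FPKM in PC3-Epi, 2.36-fold higher. With OVOL1 it was at 8.23 and 15.4 FPKM, 1.87-fold higher and short of the 2-fold limit, and with OVOL2 at 8.14 and 21.6 FPKM, 2.66-fold higher. ELF3 was thus well expressed in the mesenchymal line already, unlike EHF. Relative to PC3-EMT14, the OVOL2 line stood at 112% of the PC3-Epi level and the OVOL1 line at 79.0%, and whether the 1.12-fold step between PC3-EMT14-OVOL2 and PC3-Epi exceeds the spread of the samples cannot be said.

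SPDEF, an ETS factor of prostate and goblet cells, has its row (XLOC_017868) on chromosome 6 from 34505580 to 34524091. It was at 20.1 FPKM in PC3-EMT14 against 45.5 FPKM in PC3-Epi, 2.27-fold higher. The ratios of SPDEF and ELF3 in PC3-Epi lay within the middle 90% of all genes, which spanned log2 -1.41 to 1.26. With OVOL1 it was at 19.6 and 25.8 FPKM, a ratio of 1.32, and with OVOL2 at 19.4 and 20.0 FPKM, a ratio of 1.03. SPDEF was the only 1 of the 3 genes with a lower value in the OVOL2 line than in the OVOL1 line, at 20.0 against 25.6 FPKM in their direct table. Relative to PC3-EMT14, the OVOL2 line had 45.3% and the OVOL1 line 58.0% of the PC3-Epi level.

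The PEA3 genes were highest in PC3-EMT14, and ETV1 and ETV5 were lowest in PC3-Epi, with sizes that ranged from slight for ETV4 to 2.11-fold for ETV1. ETV1 (XLOC_019936, chromosome 7 from 13930856 to 14031050) stood at 9.91 FPKM in PC3-EMT14 against 4.70 FPKM in PC3-Epi, a log2 ratio of -1.08. With OVOL1 it was at 9.71 and 7.04 FPKM, 1.38-fold lower, and with OVOL2 at 9.61 and 6.22 FPKM, 1.54-fold lower. ETV1 was the only member at least 2-fold lower than PC3-EMT14 in any line.

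ETV5 (XLOC_015275, chromosome 3 from 185764106 to 185826901) stood at 30.5 FPKM in PC3-EMT14 against 16.3 FPKM in PC3-Epi, 1.87-fold lower. With OVOL1 it was at 29.8 and 25.2 FPKM, 1.18-fold lower, and with OVOL2 at 29.5 and 17.4 FPKM, 1.69-fold lower. The OVOL2 line thus lay near PC3-Epi and the OVOL1 line near PC3-EMT14. In the OVOL2 comparison, 4.28% of all genes had a ratio as low as that of ETV5 or lower.

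ETV4 (XLOC_009271, chromosome 17 from 41605211 to 41623762) had the highest FPKM of the 28 ETS genes in each line. It was at 58.9 FPKM in PC3-EMT14 against 52.7 FPKM in PC3-Epi, at 57.6 and 53.8 FPKM without and with OVOL1, and at 57.0 and 51.5 FPKM without and with OVOL2. Relative to PC3-EMT14 its highest and lowest line differed by 1.12-fold, and PC3-Epi and the OVOL2 line by 1.01-fold. Whether either step exceeds the spread of the samples cannot be said. ETV4 alone made up 21.9% of the summed FPKM of the 28 ETS genes in PC3-EMT14 and 18.4% in PC3-Epi.

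**Figure D2:**
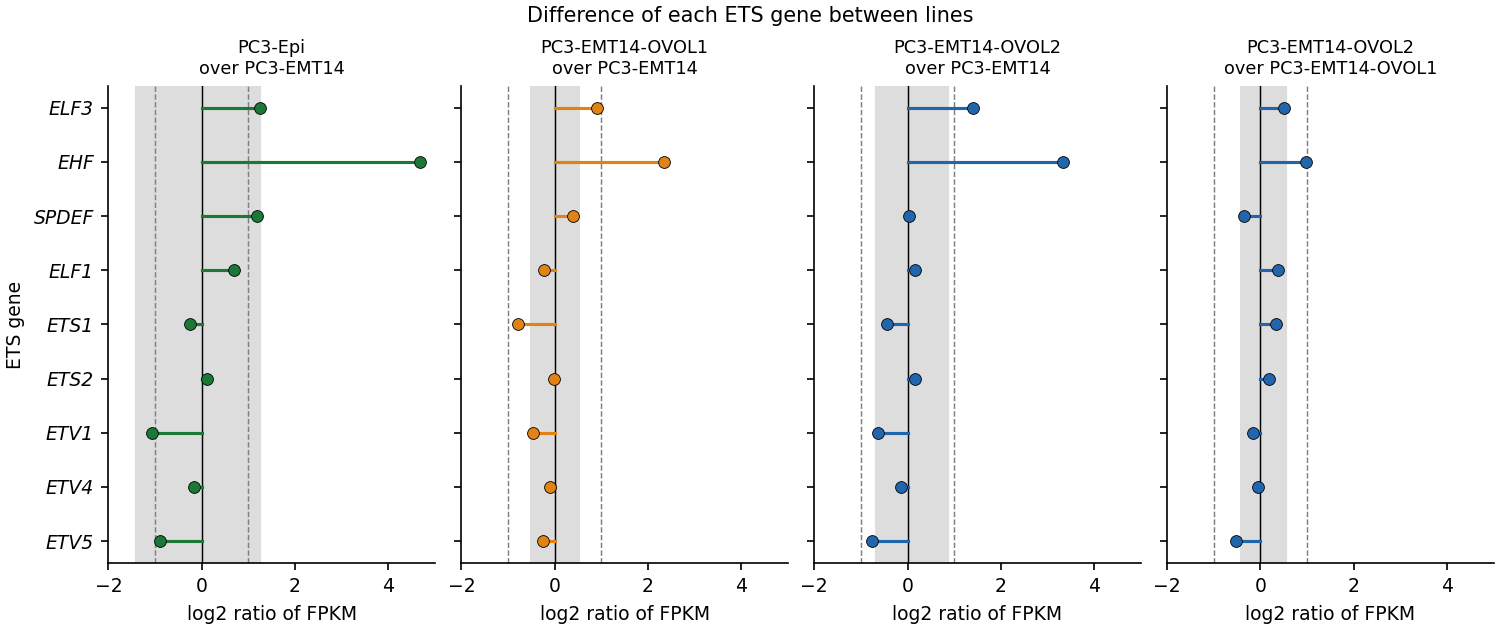
Log2 ratio of pooled FPKM of 9 ETS genes in the 4 comparisons, each dot a gene, with the line named first in the panel title as numerator. The grey band holds the middle 90% of all genes of that comparison and dashed lines mark 2-fold. EHF lies right of the band in each panel, and ETV1 and ETV5 lie left of 0 in each.

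ETS1 and ELF1 each ordered the lines in a way of their own, while ETS2 hardly differed between them. ETS1 was lower than PC3-EMT14 in the other lines but least so in PC3-Epi. ETS1 (XLOC_004408, chromosome 11 from 128328656 to 128457453) stood at 27.6 FPKM in PC3-EMT14 against 23.3 FPKM in PC3-Epi. It was lowest with OVOL1, at 27.0 and 15.7 FPKM without and with the transgene (1.72-fold lower), and intermediate with OVOL2, at 26.7 and 19.6 FPKM (1.37-fold lower). Among all genes of the OVOL1 comparison, 2.27% had a ratio as low or lower. ETS2 (XLOC_013474, chromosome 21 from 40177849 to 40196878) was the flattest member beside ETV4, at 10.8 FPKM in PC3-EMT14 against 11.8 FPKM in PC3-Epi, 10.6 FPKM with OVOL1 and 11.8 FPKM with OVOL2.

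ELF1 (XLOC_005786, chromosome 13 from 41506055 to 41593508), a broadly expressed relative of ELF3 and EHF, was at 5.66 FPKM in PC3-EMT14 against 9.18 FPKM in PC3-Epi, 1.62-fold higher. The OVOL lines stayed near PC3-EMT14, at 5.54 and 4.72 FPKM without and with OVOL1, and 5.49 and 6.09 FPKM without and with OVOL2.

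ERG (XLOC_013612, chromosome 21 from 39751950 to 40033704) was listed at or near 0 in every line. It was listed at 0.00132 FPKM in PC3-EMT14 and at 0 in PC3-Epi, at 0.00132 FPKM with OVOL1 and at 0 with OVOL2, and no ratio is given. A listed 0 can be a failed estimate, since CIC, a gene of most cells, was also listed at 0 in PC3-EMT14. Whether any ETS gene is fused was not analysed here. TMPRSS2, the usual fusion partner of ERG, was at 0.967 FPKM in PC3-EMT14 against 5.50 FPKM in PC3-Epi, 1.43 FPKM with OVOL1 and 1.66 FPKM with OVOL2.

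Compared directly, the OVOL lines differed less than 2-fold in each of the 9 members. No member was 2-fold higher (1.89% of 12106 genes were) or lower (1.17%) in PC3-EMT14-OVOL2 than in PC3-EMT14-OVOL1. EHF came closest, at 4.48 against 2.28 FPKM (1.96-fold higher with OVOL2), and 1.76% of all genes had a ratio as high or higher. Dividing by the median ratio of all genes in that table, a log2 shift of -0.04, put EHF past 2-fold. ELF3 was at 21.6 against 15.2 FPKM (1.42-fold higher) and ETV5 at 17.4 against 24.9 FPKM (1.43-fold lower). ETV4 was at 51.5 against 53.2 FPKM, nearly equal. OVOL2 mRNA was far more abundant in its line than OVOL1 mRNA in the other, and the constructs differed. A difference between the factors therefore cannot be told apart from a difference in their levels or constructs.

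The make-up of ETS mRNA differed between lines more than its sum. Summed over the 28 genes of the family, FPKM was 269 in PC3-EMT14 and 287 in PC3-Epi, and 248 with OVOL1 and 241 with OVOL2. ELF3, EHF and SPDEF together held 10.8% of that sum in PC3-EMT14, 17.6% in the OVOL1 line, 19.1% in the OVOL2 line and 26.9% in PC3-Epi. ETV1, ETV4 and ETV5 together held 36.95%, 34.7%, 31.2% and 25.7% in the same order. The epithelium-specific share was thus below the PEA3 share in PC3-EMT14 and in both OVOL lines, and slightly above it in PC3-Epi. SPDEF supplied 45.5 of the 77.2 FPKM of ELF3, EHF and SPDEF in PC3-Epi.

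**Figure D3:**
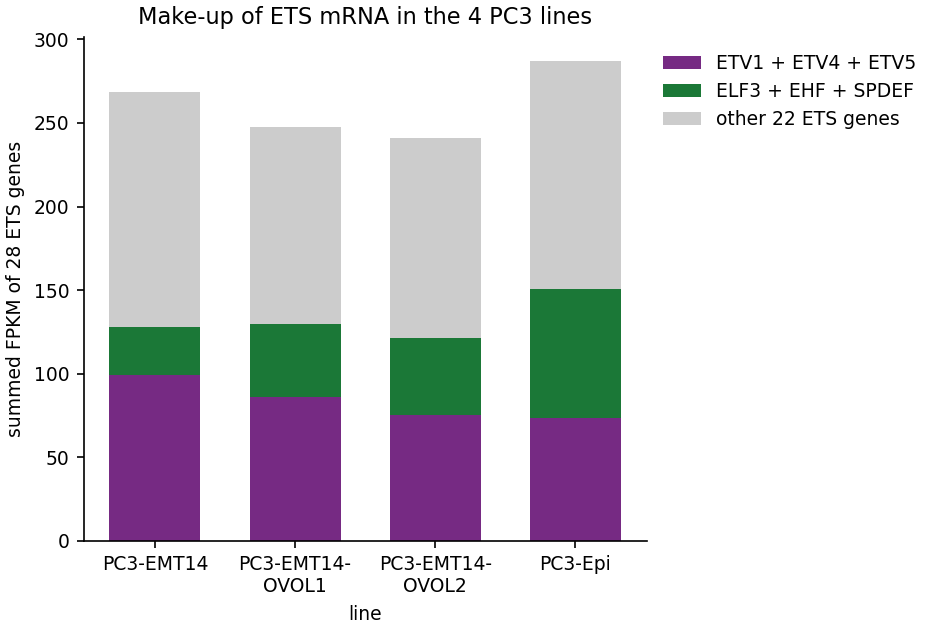
Summed pooled FPKM of the 28 ETS genes in each line, stacked by gene group, with levels taken from separately scaled tables. The ELF3, EHF and SPDEF segment is 28.9 FPKM in PC3-EMT14 against 77.2 FPKM in PC3-Epi, and the ETV1, ETV4 and ETV5 segment 99.3 and 73.8 FPKM.

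Isoform rows showed differences that the gene values did not. The tables name isoforms by TCONS identifiers without tying them to a transcript, so the exons involved are not given here. EHF, SPDEF, ETS2 and ETV5 have 1 isoform row each, and the other 6 members have more. ELF3 has a major isoform, TCONS_00001552, and a minor isoform, TCONS_00001551. The minor ELF3 isoform was at 0.0537 FPKM in PC3-EMT14 against 1.30 FPKM in PC3-Epi (24.3-fold higher). With OVOL1 it was at 0.741 FPKM (14.1-fold) and with OVOL2 at 0.899 FPKM (17.3-fold), under the 1 FPKM floor used for genes. Its share of ELF3 was 0.639% in PC3-EMT14, 4.82% in the OVOL1 line, 4.15% in the OVOL2 line and 6.57% in PC3-Epi, so the major isoform held at least 93.4% of ELF3 in each line.

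The minor ELF1 isoform TCONS_00009506 held 6.05% of ELF1 in PC3-EMT14 and 21.7% in PC3-Epi. Its share was 14.2% with OVOL2 and 4.82% with OVOL1, so the line with OVOL1 lay on the side of PC3-EMT14. In FPKM it was at 0.343 in PC3-EMT14 and 1.99 in PC3-Epi, whereas the major isoform TCONS_00009507 was at 5.32 and 7.19.

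ETV4 was flat as a gene, and its isoforms were not. TCONS_00015042 went with PC3-EMT14, at 41.3 FPKM there and 30.1 FPKM in PC3-Epi, 34.6 FPKM with OVOL1 and 27.2 FPKM with OVOL2. TCONS_00015043 was at 17.5 FPKM in PC3-EMT14 against 22.6 FPKM in PC3-Epi, 19.3 FPKM with OVOL1 and 24.3 FPKM with OVOL2. The second isoform thus held 29.8% of ETV4 in PC3-EMT14, 35.8% in the OVOL1 line, 47.1% in the OVOL2 line and 42.8% in PC3-Epi.

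ETV1 has 7 isoform rows, led by TCONS_00032484 in each line. TCONS_00032485 was at 0.675 FPKM in PC3-EMT14 against 0.495 FPKM in PC3-Epi, but at 0.00965 FPKM with OVOL1 and 0.0319 FPKM with OVOL2. Its share of ETV1 was 6.81% in PC3-EMT14 and 10.5% in PC3-Epi, against 0.137% and 0.512% in the OVOL lines, so here the OVOL lines stood apart from both. ETS1 had an isoform, TCONS_00007249, at 0.790 FPKM in PC3-Epi (3.39% of ETS1) and at most 0.0663 FPKM in each of the other lines. Isoform values under 1 FPKM are model estimates at low levels, and no error could be put on them.

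**Figure D4:**
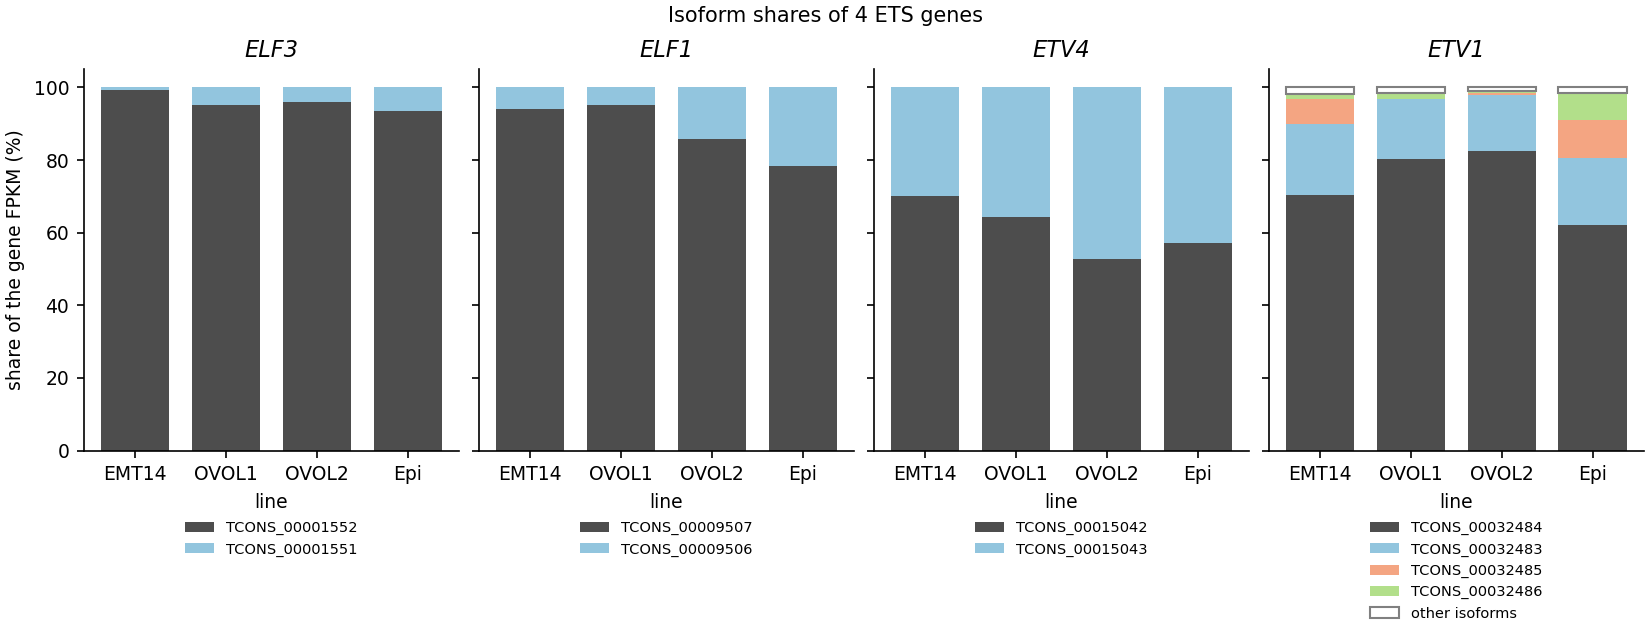
Share of the gene's FPKM (percent) held by each isoform row of ELF3, ELF1, ETV4 and ETV1 in the 4 lines, with isoforms that never reach 4% drawn together in white. The second ETV4 isoform holds 29.8% in PC3-EMT14 and 47.1% with OVOL2, and TCONS_00032485 of ETV1 holds 6.81% in PC3-EMT14 and 10.5% in PC3-Epi against 0.137% with OVOL1 and 0.512% with OVOL2.

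Across the rest of the family, 9 of the other 18 ETS genes reached 1 FPKM in at least 1 line, and none of the 9 was 2-fold apart in any comparison. Among all genes, 7.35% were 2-fold higher and 8.33% lower in PC3-Epi, 2.42% and 1.53% with OVOL1, and 4.41% and 2.92% with OVOL2. With only 9 genes, a count of 0 was not tested against these shares. The 9 genes were ERF, ETV3, ELK1, ELK3, ELK4, GABPA, ELF2, ELF4 and ETV6. The largest log2 ratio against PC3-EMT14 among them, in either direction, was 0.45, for ETV6 in PC3-Epi (1.76 and 2.41 FPKM). ELK3, a target of ERK that represses transcription in its ground state, was at 16.5 FPKM in PC3-EMT14 against 12.4 FPKM in PC3-Epi, 11.9 FPKM with OVOL1 and 12.2 FPKM with OVOL2. The other 9 (FLI1, FEV, ETV2, ETV3L, ELF5, SPI1, SPIB, SPIC and ETV7) were under 1 FPKM in every line. Among them FLI1, the closest relative of ERG and a factor of blood and endothelial cells, was at 0.881 FPKM in PC3-EMT14 against 0.00912 FPKM in PC3-Epi, 0.205 FPKM with OVOL1 and 0.0970 FPKM with OVOL2. SPI1, which drives macrophage identity, was at most 0.0376 FPKM.

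ERK pathway output genes are induced by ERK signalling and in part restrain it. Of 12 listed genes, 11 were above 1 FPKM (EGR1 was not), and 5 were at least 2-fold lower in PC3-Epi than in PC3-EMT14, beside 8.33% of all genes. These were DUSP5 and DUSP6, phosphatases of ERK, and SPRY2, SPRY4 and SPRED1, inhibitors of signalling from receptor tyrosine kinases to ERK. DUSP6 was at 141 FPKM in PC3-EMT14 against 42.2 FPKM in PC3-Epi (3.34-fold lower), and at 71.7 FPKM with OVOL1 and 71.4 FPKM with OVOL2, 1.92-fold and 1.91-fold lower. With OVOL1, 0 of the 11 were 2-fold apart, beside 1.53% of all genes lower and 2.42% higher, and with OVOL2, 2 were lower, beside 2.92%. SPRY4 was at 23.5 FPKM without and 7.42 FPKM with OVOL2 (3.16-fold lower) and SPRED1 at 20.2 and 9.95 FPKM (2.03-fold lower). SPRY4 also differed between the OVOL lines, at 7.41 FPKM with OVOL2 and 17.4 FPKM with OVOL1. Not all genes of the list were lower with an OVOL. DUSP5 was at 165 FPKM without and 215 FPKM with OVOL1 (1.30-fold higher), and at 163 and 147 FPKM without and with OVOL2. IER3 was at 227 FPKM without and 447 FPKM with OVOL2 (1.97-fold higher). The median log2 ratio of the list was -0.98 in PC3-Epi, 0.02 with OVOL1 and -0.15 with OVOL2.

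**Figure D5:**
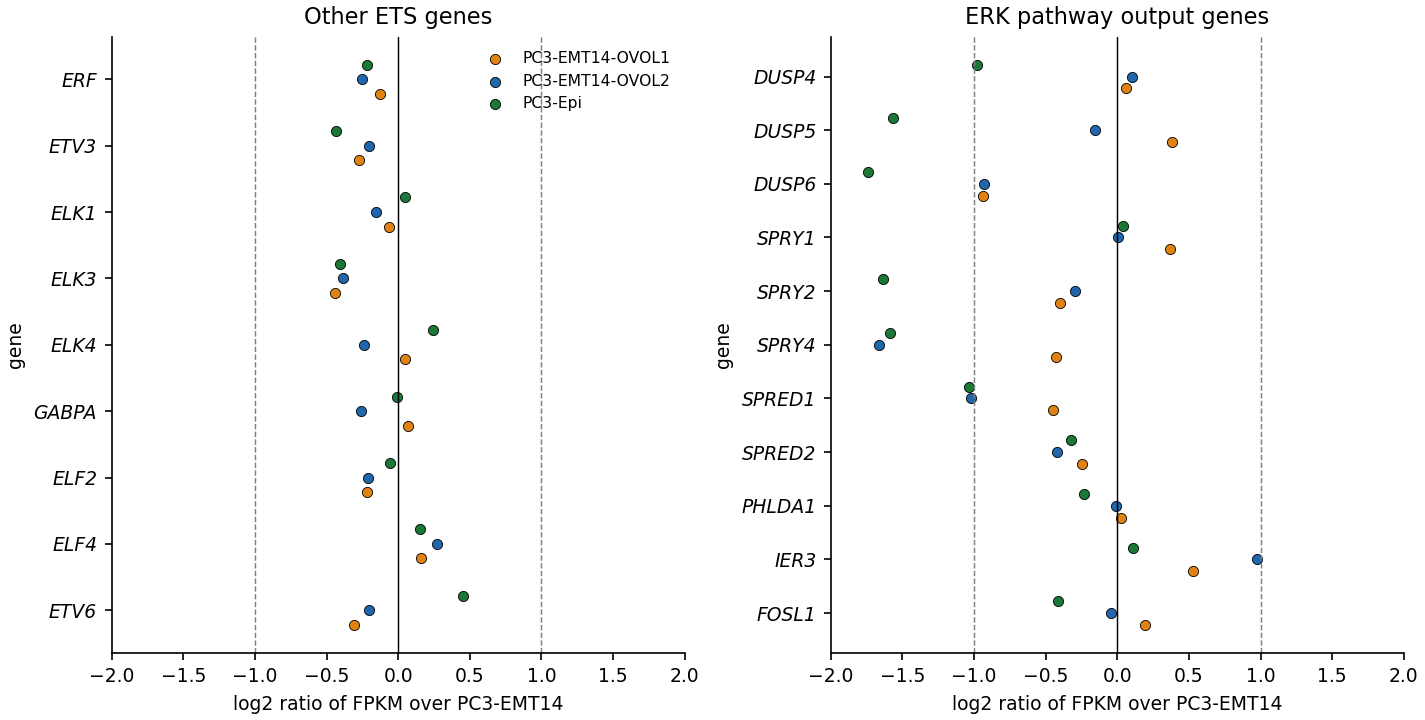
Log2 ratio of pooled FPKM over PC3-EMT14 for the 9 other ETS genes at 1 FPKM or more (left) and the 11 ERK output genes at that level (right), coloured by line, with dashed lines at 2-fold. The ETS points lie within 0.45 of 0 on the left, and SPRY4 reaches -1.66 with OVOL2 on the right.

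Of 11 listed partners and regulators of ETS factors, 8 could be counted in each comparison, though not the same 8 in all. Of all genes, 7.35% were 2-fold higher and 8.33% lower in PC3-Epi, with smaller shares in the other comparisons. None of the partners counted was 2-fold apart against PC3-EMT14 or between the OVOL lines. The nearest was JUN, an AP-1 subunit that shares composite sites with ETS factors, at 29.7 FPKM in PC3-EMT14 against 16.2 FPKM in PC3-Epi, 15.6 FPKM with OVOL1 and 14.9 FPKM with OVOL2. MAPK3, a kinase of the ERK pathway, was at 21.3 FPKM in PC3-EMT14 against 18.2 FPKM in PC3-Epi. RFWD2 and DET1, of the ubiquitin ligase that degrades PEA3 factors, were at 1.00 and 2.37 FPKM in PC3-EMT14 against 1.06 and 1.55 FPKM in PC3-Epi. RUNX1, a partner of ETS1, was at 11.6 and 13.5 FPKM, ATXN1L at 6.27 and 6.04 FPKM, and GABPB2, of the GABP complex, at 1.68 and 1.73 FPKM in these lines. The related GABPB1 was at 8.16 and 10.9 FPKM, in a row that Cuffdiff marked as failed in this comparison and that was left out of its count. GABPB1 was counted in the other comparisons, whereas RFWD2, under 1 FPKM there, was not. FOS was at 0.368 and 0.384 FPKM, and CIC, a repressor of the PEA3 genes, was listed at 0 in PC3-EMT14 and at 0.00588 FPKM in PC3-Epi.

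The genes whose pattern was most like that of ELF3 and EHF were found by the distance of the 3 log2 ratios against PC3-EMT14 over 11988 genes. For ELF3 they were SPINT1 (distance 0.115), IRS2 (0.117), LLGL2 (0.133), MAL2 (0.135) and TMC6 (0.151). SPINT1, a membrane-bound protease inhibitor of epithelia, had log2 ratios of 1.33 in PC3-Epi, 0.90 with OVOL1 and 1.49 with OVOL2, beside 1.24, 0.90 and 1.41 for ELF3. For EHF they were CBLC (0.320), FAM83F (0.567), PRSS22 (0.651), TMEM30B (0.683) and CST6 (0.706). CBLC, an epithelial ubiquitin ligase of receptor tyrosine kinases, had log2 ratios of 4.88, 2.50 and 3.53, beside 4.68, 2.35 and 3.33 for EHF. The likeness rests on 3 ratios with a shared denominator and is a description only.

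The loci of several members overlap other annotated genes in GENCODE, and no source used here states that the counting used strand. ETV4 overlaps DHX8, ETV5 overlaps DGKG and ETV5-AS1, and ETS1 overlaps ETS1-AS1. DGKG lies on the same strand as ETV5, and DHX8, ETV5-AS1 and ETS1-AS1 on the opposite strand. ELF3 overlaps a long noncoding RNA gene and ELF1 the pseudogene RGS17P1, each on the same strand. ETS2 overlaps a long noncoding RNA gene on the opposite strand, and ERG overlaps genes on both strands. Strand alone could not separate the pairs on the same strand. If strand was not used, reads from a gene and its partner on the opposite strand could not be told apart in these values.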

How the data were processed

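RNA-seq of 10 samples in 4 groups was used, grouped by their labels. The authors used TopHat to align paired reads of 50 bases to UCSC hg19. Cuffdiff then compared the groups in pairs, scaling by the upper quartile of compatible hits, with correction for bias and for reads with several alignments. The FPKM values the authors deposited are pooled, 1 per group, gene or isoform and comparison, in 8 tables. The depth per sample is unknown. The tables also hold the authors' fold changes, test statistics, p-values and q-values, which were not used. There were 0 unused columns of values per sample.

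Ratios were computed within a table without a pseudocount, in Python 3.11.15 with numpy 2.4.6 and pandas 2.3.3. Figures were drawn with matplotlib 3.10.9. A gene counted as higher or lower at 2-fold with at least 1 FPKM in the higher group, leaving out rows marked FAIL, HIDATA or LOWDATA. Percentages of all genes with a ratio as high or as low are over those genes above 0 in both groups. Isoform ratios were taken where the higher value was at least 0.5 FPKM. The counting rule was run on simulated data whose set ratios lay clear of the 2-fold limit. That run checks the code only and says nothing of the spread between samples. Positions are as deposited, with starts counted from 1. Named genes are the 10 members, the other ETS genes at 1 FPKM or more, ERK output genes 2-fold apart, all listed partners but 1 that is not reported here, and the 5 genes most alike to ELF3 and to EHF. FLI1, SPI1, IER3 and the ETS1, ETV1 and ELF1 isoforms were singled out after their values were seen. The members and lists were chosen with earlier results of these data known.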

Additional observations from a re-analysis of the deposited data

How the results depend on the processing

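No paired analysis was possible because the deposited values are pooled over the samples of a group, and for the same reason no sample could be left out. Of the 10 members, 4 were 2-fold apart in PC3-Epi, 1 with OVOL1 and 2 with OVOL2, each against PC3-EMT14, and 0 between the OVOL lines. A 4-fold limit left 1 in PC3-Epi and 1 with OVOL2 (EHF in both). A 1.5-fold limit gave 6 in PC3-Epi, 3 with OVOL1, 4 with OVOL2 and 1 between the OVOL lines. The shares of all genes past the 1.5-fold and 4-fold limits were not computed, so these counts have no background beside them. Dividing by the median ratio of all genes gave 1 between the OVOL lines, EHF. The other settings, no floor, a pseudocount of 1 FPKM and the sum of isoform values, kept the counts within 1.5 times. With the pseudocount the count in PC3-Epi was 3, since ETV1 then missed 2-fold. Of 108 recomputed log2 ratios, 105 changed the fold ratio they stand for by less than 1.5 times, and 0 changed sign. The 3 that moved more were those of EHF against PC3-EMT14 with the pseudocount, at 3.13 in PC3-Epi, 1.19 with OVOL1 and 1.92 with OVOL2, as the pseudocount exceeds the level of EHF in PC3-EMT14. The pooled values carry no replicate error, so it is unknown whether ratios near 2-fold, as for ETV1 in PC3-Epi and EHF between the OVOL lines, lie past it beyond the spread of the samples.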
